A study of Mus musculus with 4 samples.

Results

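The small nucleolar RNA (snoRNA) host genes Gas5, Snhg1, Snhg3, Snhg5, Snhg6, Snhg8, Snhg11, Snhg12 and Snhg15 were taken by symbol from the deposited expression table. All 9 symbols were found, each as 1 of the 52189 gene identifiers in the table. The values come from RNA immunoprecipitation and sequencing (RIP-seq) in AML12, a line of mouse hepatocytes. Its medium held 10% serum and, as a glucocorticoid, dexamethasone at 0.1 µM, and the cells were exposed to ultraviolet light to crosslink protein to RNA. SAFB, or scaffold attachment factor B, binds RNA in the nuclear matrix, and its antibody received one share of the nuclear lysate while control IgG received the other. The 4 libraries are 2 of the IgG RIP and 2 of the SAFB RIP, and the cells of both groups had the same genotype and culture conditions as far as the labels say. No label names separate cultures for the replicates, and the p-values hence cover the spread of these libraries alone, which may be technical. The input was not analysed here.

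Most snoRNAs of mammals are cut out of the introns of longer transcripts. Some of these hosts are noncoding: their introns yield snoRNAs, while the spliced exons are often short-lived because short reading frames expose them to nonsense-mediated decay. Box C/D snoRNAs guide the methylation of ribosomal RNA and box H/ACA snoRNAs guide pseudouridylation. Many hosts begin with the terminal oligopyrimidine (TOP) sequence also found on ribosomal protein mRNAs. GAS5, named for its accumulation in growth-arrested cells, is also known for binding the glucocorticoid receptor.

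Values are TPM, transcript shares that are per length and scaled to 1000000 per library. Whether levels of short snoRNAs and their longer hosts can be compared on this scale was not tested. TPM keeps no read depth, so the depth is unknown and counting intervals cannot be given. The libraries held 16031 to 17278 identifiers above 0 in the IgG RIP and 21006 to 22389 in the SAFB RIP. Across genes tested, log2(TPM + 1) correlated at r = 0.923 between the IgG libraries and at 0.978 between the SAFB libraries. A gene was tested where 2 or more libraries reached 1 TPM, and the median log2 fold change of these 16647 genes was 0.46 in favour of the SAFB RIP. Fold changes on the log2(TPM + 1) scale are therefore also given after centring each library on its median. Hepatocyte markers were present, 9 of 9 with a mean of at least 1 TPM, and summed to 8778 and 8855 TPM in the IgG RIP and to 11371 and 11196 TPM in the SAFB RIP. Of these 9, 2 were called higher and 2 lower, and without Cp, left out after its values were seen, the sums were 7227 and 7347 TPM in the IgG RIP and 6175 and 6416 TPM in the SAFB RIP. Of the fibroblast and endothelial markers 0 of 6 reached that mean, with sums of 0 to 0.647 TPM and 0.0816 to 0.771 TPM in the IgG RIP and 0.188 to 1.80 TPM and 0.644 to 0.661 TPM in the SAFB RIP. Pdgfrb and Cdh5 were listed at 0 in every library. Of 3 immune markers 1 did, Cd68, and the list summed to 6.31 to 12.7 TPM in the IgG RIP and to 21.3 to 31.8 TPM in the SAFB RIP, with Adgre1 listed at 0 in every library. The part of these marker levels in the values below was not tested.

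Snhg8 and Snhg1 were lower in the SAFB RIP, by 2.13-fold and 1.75-fold in mean TPM, and 0 members were called higher. Gas5, the most abundant host, stood at nearly the same level in both groups, and Snhg6 was the one host with both SAFB libraries above both IgG libraries. Of the 9 members, 8 passed the filter on low values. Of these 8, 2 passed as lower, 0 as higher and 6 did not pass (limma, Benjamini-Hochberg adjusted p below 0.05). Of all genes tested 38.1% were called, 8.3% as lower and 29.8% as higher. The median log2 fold change of the 8 was -0.42, and 7 of 8 lay below the median of all genes tested. After median centring 3 were lower and 0 higher, with 17.6% of all genes lower and 16.4% higher, and the median of the 8 was -0.88.

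**Figure D1:**
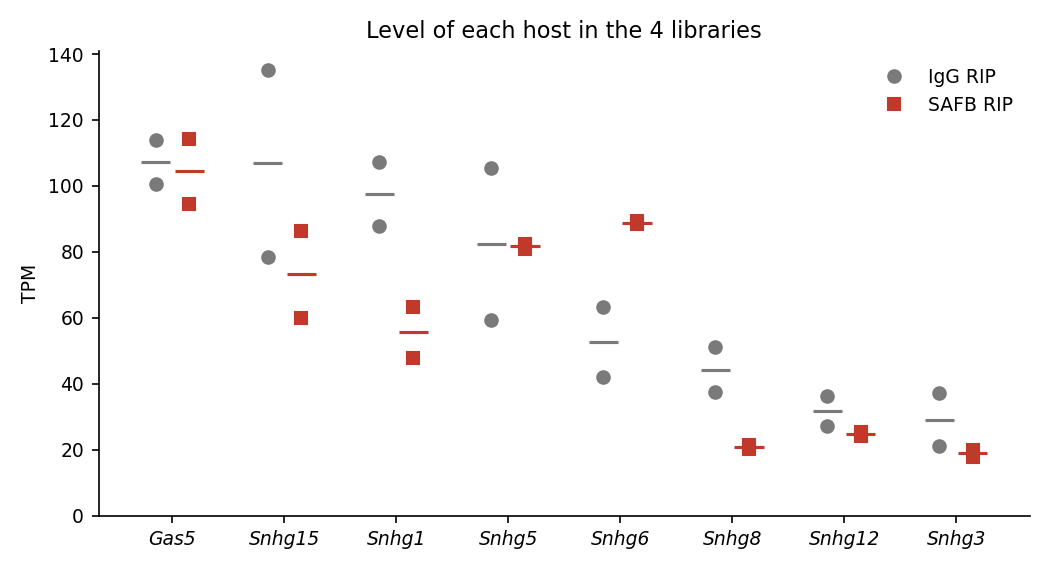
TPM of the 8 tested hosts (y axis, linear from 0) in each library, with circles for the 2 IgG RIP libraries, squares for the 2 SAFB RIP libraries and short lines for group means; hosts are ordered by their IgG mean. Snhg6 has both squares above both circles, while Snhg1, Snhg8, Snhg12 and Snhg3 have both squares below.

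In 4 hosts both SAFB libraries lay below both IgG libraries, in 1 above, and in 3 the groups overlapped. Over all genes tested, both SAFB libraries lay below both IgG libraries in 21.4% and above in 52.3%. The IgG libraries of a host differed from each other by 1.13-fold to 1.77-fold and the SAFB libraries by 1.01-fold to 1.44-fold. In 6 of the 8 hosts the second IgG library was the higher of the IgG pair. Summed over all 9 members, the hosts took 521 and 582 TPM of the IgG libraries and 457 and 479 TPM of the SAFB libraries, so the SAFB sums were the lower ones.

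Among hosts of box C/D snoRNAs, Gas5 (chromosome 1, 161034422 to 161038539, plus strand) has 10 annotated snoRNAs within it and 25 annotated transcripts. It stood at 101 and 114 TPM in the IgG RIP and at 114 and 94.7 TPM in the SAFB RIP. The groups overlapped, and the means were 107 ± 9.40 and 104 ± 13.9 TPM (SD, n = 2). The log2 fold change was -0.04 ± 0.15 (SE), with a 95% interval of -0.43 to 0.35 (limma, Benjamini-Hochberg adjusted p = 0.849). Where 1 library is left out, its group has a single library, which is assumed to vary like the pair of the other group. All genes called higher then numbered 6865 and 7627 without an IgG library and 767 and 782 without a SAFB library, so an adjusted p from such a fit rests on the pair that is left. Gas5 turned positive, at 0.05 and 0.09, without IgG RIP replicate 2 or without SAFB RIP replicate 2. Centring moved Gas5 to -0.50, just outside the threshold (limma, adjusted p = 0.0544).

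Gas5 overlaps Zbtb37, a zinc finger gene on the opposite strand. Zbtb37 stood at 7.40 and 15.9 TPM in the IgG RIP and at 94.8 and 88.8 TPM in the SAFB RIP. It rose by 2.96 ± 0.37 on the log2 scale (limma, adjusted p = 0.00895), while Gas5 did not pass. The library kit preserves strand per the labels' protocols, but the use of strand in counting is not given in the sources used here. How far reads of one gene entered the other was not tested.

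Snhg1 (chromosome 19, 8723475 to 8726443, plus strand) holds 8 annotated snoRNAs of the box C/D kind. Its level was 87.8 and 107 TPM in the IgG RIP and 47.9 and 63.4 TPM in the SAFB RIP. Both SAFB libraries were below both IgG libraries, and the log2 fold change was -0.80 ± 0.20 (limma, Benjamini-Hochberg adjusted p = 0.0356). After centring it stood at -1.26 (limma, adjusted p = 0.00977). The call was lost when SAFB RIP replicate 1 or 2 was left out, at -0.61 and -1.002 (limma, adjusted p = 0.267 and 0.175). It was also lost with no filter on low values (limma, adjusted p = 0.059) and with no variance trend (limma, adjusted p = 0.073).

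Snhg5 (chromosome 9, 88521050 to 88522929, minus strand), the host of Snord50a and Snord50b, stood at 105 and 59.5 TPM in the IgG RIP and at 82.2 and 81.0 TPM in the SAFB RIP. The SAFB libraries lay close together, between the IgG libraries. The log2 fold change was 0.04 ± 0.29, with an interval of -0.73 to 0.82 (limma, adjusted p = 0.922). Its direction rests on which IgG library is kept and on the scaling, since centring gave -0.42. It stood at 0.45 without IgG RIP replicate 1 and at -0.36 without IgG RIP replicate 2 (limma, adjusted p = 0.0258 and 0.0402). The spread in these fits comes from the SAFB libraries alone, which were close, and no direction can be read for Snhg5.

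Snhg6 (chromosome 1, 9941959 to 9944118, minus strand), the host of Snord87, had the highest fold change of the tested hosts. Of all genes tested, 61.5% had a lower fold change than Snhg6. It was at 63.2 and 41.9 TPM in the IgG RIP and at 88.5 and 89.3 TPM in the SAFB RIP. Both SAFB libraries were above both IgG libraries and within 1.01-fold of each other. The log2 fold change was 0.78 ± 0.22, with an interval of 0.18 to 1.37, and did not pass after adjustment (limma, Benjamini-Hochberg adjusted p = 0.0538). It stood at 1.07 without IgG RIP replicate 1 and at 0.48 without IgG RIP replicate 2 (limma, adjusted p = 0.00183 and 0.0175), with the spread taken from the close SAFB libraries alone. After centring it stood at 0.32, and with a GC trend removed at -0.11 (limma, adjusted p = 0.356 and 0.798). It overlaps Mcmdc2, on the opposite strand, which stood at 0.0434 and 0.483 TPM in the IgG RIP and at 2.02 and 4.41 TPM in the SAFB RIP. Mcmdc2 passed as higher, at 1.70 ± 0.42 (limma, adjusted p = 0.0374), but not after centring (limma, adjusted p = 0.0775). How far reads of Mcmdc2 and Snhg6 entered each other's values was not tested.

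Among hosts of box H/ACA snoRNAs, Snhg8 (chromosome 3, 123507552 to 123508404, minus strand), the host of Snora24, showed the lowest fold change of the 8. It stood at 37.6 and 51.0 TPM in the IgG RIP and at 21.5 and 20.1 TPM in the SAFB RIP, with no overlap. Its log2 fold change was -1.04 ± 0.22 (limma, adjusted p = 0.0248) and -1.50 after centring (limma, adjusted p = 0.00902). Of all genes tested, 4.64% had a lower fold change, and of the 1483 long noncoding RNAs (lncRNAs) tested, 3.10%. Without SAFB RIP replicate 1 or 2 it stood at -1.08 and -0.99 and no longer passed (limma, adjusted p = 0.239 in both). In each of those fits 7 genes in all passed as lower, against 1382 with all 4 libraries.

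Snhg3 (chromosome 4, 132348014 to 132353686, minus strand) is the host of Snora73a and Snora73b, snoRNAs of the U17 family that act in the processing of the ribosomal RNA precursor. It stood at 21.0 and 37.1 TPM in the IgG RIP and at 17.7 and 20.04 TPM in the SAFB RIP. Both SAFB libraries lay below both IgG libraries, but the IgG libraries differed more from each other than the lower one did from the SAFB libraries. Its log2 fold change was -0.55 ± 0.33 (limma, adjusted p = 0.247). It stood at -0.94 without IgG RIP replicate 1 (limma, adjusted p = 0.00881, with the spread of the SAFB pair alone) and at -0.15 without IgG RIP replicate 2. Snhg3 overlaps, on the same strand, Rcc1, a chromatin-bound exchange factor gene, so reads of these genes could be split between them. Rcc1 was at 18.2 and 19.8 TPM in the IgG RIP and at 15.9 and 11.5 TPM in the SAFB RIP, a log2 fold change of -0.46 ± 0.27 that did not pass (limma, adjusted p = 0.236).

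Snhg12 (chromosome 4, 132308623 to 132311024, plus strand) holds the H/ACA RNAs Snora16a, Snora44 and Snora61 and the C/D RNA Snord99. It stood at 27.2 and 36.4 TPM in the IgG RIP and at 25.3 and 24.2 TPM in the SAFB RIP. The SAFB libraries were the lower ones. Its log2 fold change was -0.34 ± 0.21 (limma, adjusted p = 0.274), and -0.80 after centring, where it passed (limma, adjusted p = 0.0403). Without IgG RIP replicate 1 it stood at -0.54 (limma, adjusted p = 0.0353, with the spread of the SAFB pair alone), and without IgG RIP replicate 2 it stood at -0.13.

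Snhg15 (chromosome 11, 6525591 to 6528760, minus strand), the host of Snora9, had the widest spread in TPM within each group. It stood at 78.6 and 135 TPM in the IgG RIP and at 59.96 and 86.5 TPM in the SAFB RIP, so the groups overlapped. Its log2 fold change was -0.51 ± 0.33, with an interval of -1.38 to 0.36 (limma, adjusted p = 0.276). It stood at -0.90 without IgG RIP replicate 1 (limma, adjusted p = 0.0213, with the spread of the SAFB pair alone) and at -0.12 without IgG RIP replicate 2. Snhg11 (chromosome 2, 158375638 to 158386145, plus strand), a host known from neurons, was listed at 0 in 3 libraries and at 0.0325 TPM in SAFB RIP replicate 1, and was not tested. GENCODE release M21 classes Snhg11 as protein coding, in contrast to the other 8 members, which it classes as noncoding.

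**Figure D2:**
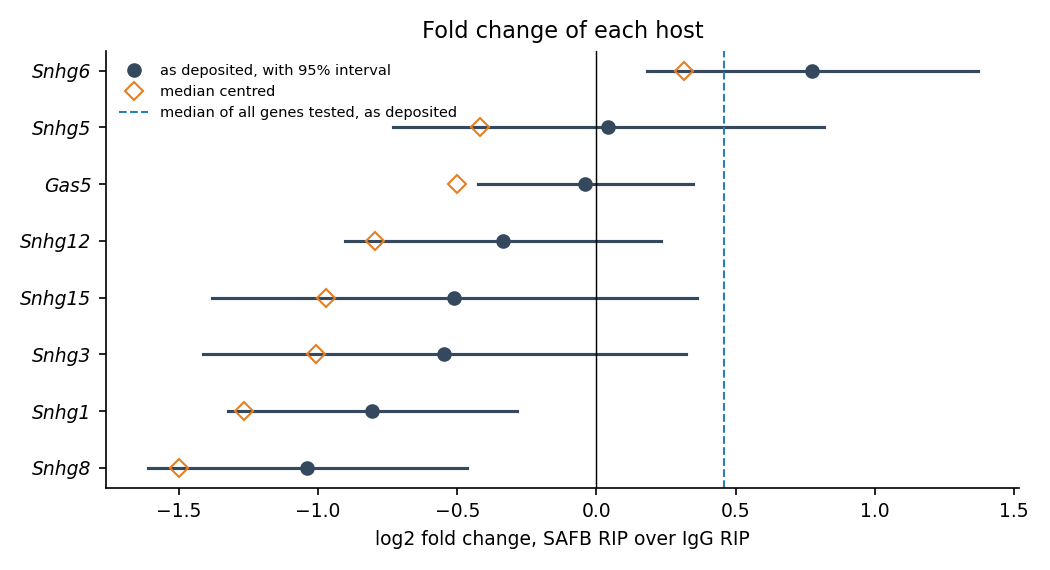
Log2 fold change of the 8 tested hosts, SAFB RIP over IgG RIP (x axis), as deposited with the 95% interval of limma (filled circles and bars) and after median centring (open diamonds); the dashed line is the median of all genes tested, 0.46. The intervals of Snhg1 and Snhg8 lie below 0 and that of Snhg6, at 0.18 to 1.37, above it.

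**Figure D3:**
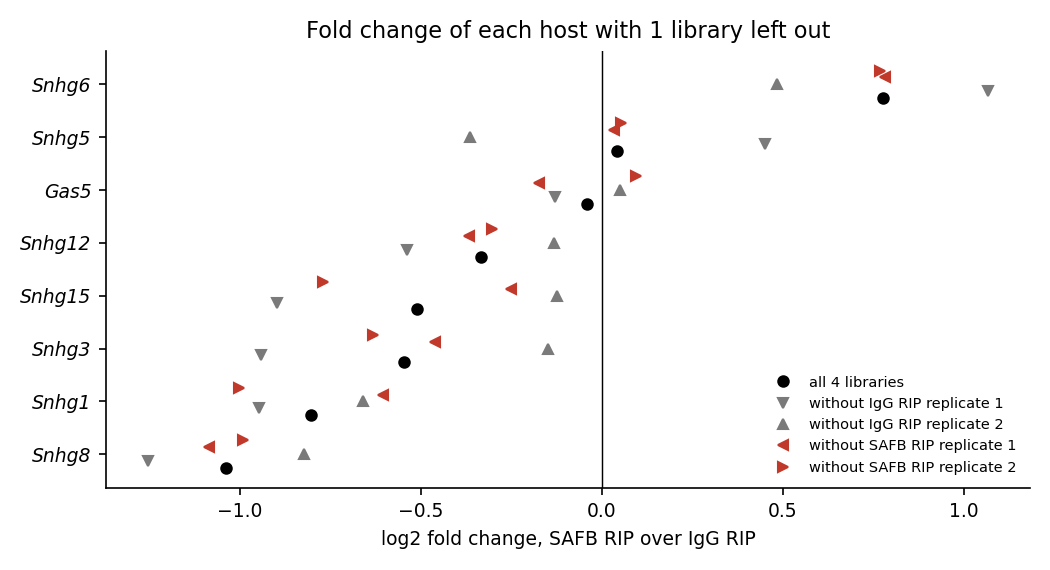
Log2 fold change of each host (x axis) with all 4 libraries (black circles) and with 1 library left out (triangles, grey for an IgG library and red for a SAFB library). Snhg1 and Snhg8 stay below 0 in all 5 fits and Snhg6 above it, while Gas5 and Snhg5 fall on both sides.

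By mean level the order in the IgG RIP was Gas5, Snhg15, Snhg1, Snhg5, Snhg6, Snhg8, Snhg12 and Snhg3. In the SAFB RIP it was Gas5, Snhg6, Snhg5, Snhg15, Snhg1, Snhg12, Snhg8 and Snhg3. Snhg6 thus moved from the fifth place to the second. In the IgG RIP the single libraries of neighbours in this order overlapped, other than those of Snhg8 and Snhg12. In the SAFB RIP those of Snhg5 and Snhg15 and those of Snhg15 and Snhg1 overlapped, and the libraries of the other neighbours did not.

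A ratio of hosts within a library does not change when that library is rescaled. Of the 28 pairs of tested hosts, 16 had ratios whose groups did not overlap. Over all pairs of the 14406 tested genes above 0 in every library this share was 70.3%, so nothing is read from the count. All 7 pairs with Snhg6 were among the 16, with Snhg6 relatively higher in the SAFB RIP in each. The ratio of Snhg6 to Snhg8 was 1.68 and 0.822 in the IgG libraries and 4.11 and 4.44 in the SAFB libraries. That of Snhg6 to Snhg1 was 0.72 and 0.391 in the IgG libraries and 1.85 and 1.41 in the SAFB libraries. Snhg8 was relatively lower in the SAFB RIP, without overlap, in 6 of its 7 pairs. The pairs of a host share its values, and Snhg6 and Snhg8 had the highest and lowest fold change of the tested hosts. The counts for these hosts restate that ranking and add no separate evidence.

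The 32 annotated snoRNAs inside the 9 hosts have entries of their own among the deposited values, which need not be separate measurements. Of these, 18 were tested and 12 stayed below 1 TPM in every library, among them both in Snhg11, which were listed at 0 throughout. The other 2, Snord78 and Snord99, reached 1 TPM in 1 library. An annotated exon of the host overlaps 29 of the 32, so reads there may belong to the host, its retained introns or the snoRNA. Of the 18 tested, 2 passed as lower and 0 as higher (limma, adjusted p below 0.05), and 5 were lower and 0 higher after centring. Of the 295 annotated snoRNAs and Cajal body RNAs tested, 10.5% were lower and 15.3% higher, or 50 and 33 after centring. The sequences of the RNAs these results turn on follow, from GENCODE release M21 transcripts on mm10, written 5′ to 3′. They show the nested snoRNAs called lower as deposited, and for the hosts Snhg1 and Snhg8 the nested snoRNA of highest mean TPM. Gm22357 and Snora61, lower after centring alone, are not shown. Snora73a and Snord50a with Snord50b are added because they have near-identical copies. Capitals mark TGATGA, the core of box C, and CTGA, box D, in C/D RNAs, and ACA near the end of H/ACA RNAs.
Snora16a, in Snhg12, chr4:132309465-132309600, plus strand: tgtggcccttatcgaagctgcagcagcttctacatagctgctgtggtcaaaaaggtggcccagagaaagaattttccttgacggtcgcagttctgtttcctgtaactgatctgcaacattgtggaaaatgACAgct
Snora73b, in Snhg3, chr4:132352322-132352526, minus strand: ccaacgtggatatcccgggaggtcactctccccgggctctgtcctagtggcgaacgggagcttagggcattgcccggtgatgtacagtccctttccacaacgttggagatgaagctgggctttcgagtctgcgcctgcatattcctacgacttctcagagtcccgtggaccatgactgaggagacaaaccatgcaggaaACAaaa
Snora73a, in Snhg3, chr4:132352775-132352979, minus strand: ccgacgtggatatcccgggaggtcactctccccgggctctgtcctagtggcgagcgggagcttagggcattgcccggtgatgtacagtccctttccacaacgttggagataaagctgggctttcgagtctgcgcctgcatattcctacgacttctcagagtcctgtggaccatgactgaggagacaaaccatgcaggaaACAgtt
Snora24, in Snhg8, chr3:123507937-123508066, minus strand: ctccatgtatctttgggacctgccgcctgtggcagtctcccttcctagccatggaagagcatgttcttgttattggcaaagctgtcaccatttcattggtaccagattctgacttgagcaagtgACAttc
Gm24452, in Snhg1, chr19:8724531-8724602, plus strand: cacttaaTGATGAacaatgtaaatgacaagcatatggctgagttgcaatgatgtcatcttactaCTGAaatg
Snord50a, in Snhg5, chr9:88521529-88521600, minus strand: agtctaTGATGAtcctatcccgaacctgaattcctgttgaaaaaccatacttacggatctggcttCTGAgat
Snord50b, in Snhg5, chr9:88521797-88521868, minus strand: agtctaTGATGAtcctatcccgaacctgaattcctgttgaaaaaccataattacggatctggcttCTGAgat

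Of the 32 nested snoRNAs, 17 held TGATGA in the first 20 bases with CTGA in the last 20 on their own strand, 9 held ACA starting 5 to 8 bases before the end, and 1 held both. Over all 1557 annotated snoRNAs and Cajal body RNAs of at least 40 bases, 20.1% held the first pattern and 45.2% the second. Snora73a and Snora73b differ at 7 of 205 bases (96.6% identity) and Snord50a and Snord50b at 1 of 72 (98.6%), so values within each of these pairs are uncertain as single genes.

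Snora16a stood at 22.4 and 13.8 TPM in the IgG RIP and at 7.19 and 5.06 TPM in the SAFB RIP, a log2 fold change of -1.40 (limma, adjusted p = 0.0454). A second entry of that name, 1 base longer at the same place, was below 1 TPM throughout, so the split between them is uncertain. Snora73b stood at 12.4 and 19.4 TPM in the IgG RIP and at 5.57 and 6.14 TPM in the SAFB RIP, a log2 fold change of -1.27 (limma, adjusted p = 0.0460) that did not pass with a GC trend removed, at -1.21 (limma, adjusted p = 0.0621). In both snoRNAs the SAFB libraries lay below the IgG libraries. Its near-copy Snora73a stood at 6.43 and 69.0 TPM in the IgG RIP and at 4.37 and 1.40 TPM in the SAFB RIP, and did not pass (limma, adjusted p = 0.142).

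Some nested snoRNAs swung widely between replicates. Snora9, in Snhg15, stood at 88.4 and 1.10 TPM in the IgG RIP and at 37.3 and 0.966 TPM in the SAFB RIP, so the groups overlapped. Snora24, in Snhg8, was listed at 0 in IgG RIP replicate 1, at 32.5 TPM in IgG RIP replicate 2 and at 12.2 and 14.0 TPM in the SAFB RIP. Snord50b, in Snhg5, stood at 33.2 and 1.38 TPM in the IgG RIP and at 21.1 and 24.4 TPM in the SAFB RIP. For these RNAs no direction can be read.

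The abundant nested entries of Gas5 and Snhg1 were steadier. Gm22357, in Gas5, stood at 111 and 151 TPM in the IgG RIP and at 123 and 110.1 TPM in the SAFB RIP. Gm24452, in Snhg1, stood at 70.9 and 98.0 TPM in the IgG RIP and at 60.3 and 71.5 TPM in the SAFB RIP. In both the groups overlapped, though after centring both passed as lower, Gm22357 at -0.61 and Gm24452 at -0.80 (limma, adjusted p = 0.0464 and 0.0294). The groups also overlapped for Snord87 in Snhg6, at 31.3 and 9.01 TPM against 17.8 and 25.6 TPM. They did not overlap for Mir5117, annotated as a snoRNA in Gas5, or for Snora61 in Snhg12. Mir5117 was the higher in the SAFB RIP, at 22.4 and 16.0 TPM against 30.3 and 28.8 TPM (limma, adjusted p = 0.108). Snora61 was the lower, at 18.5 and 23.3 TPM against 14.9 and 9.90 TPM (limma, adjusted p = 0.128), and passed as lower after centring (limma, adjusted p = 0.0399).

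**Figure D4:**
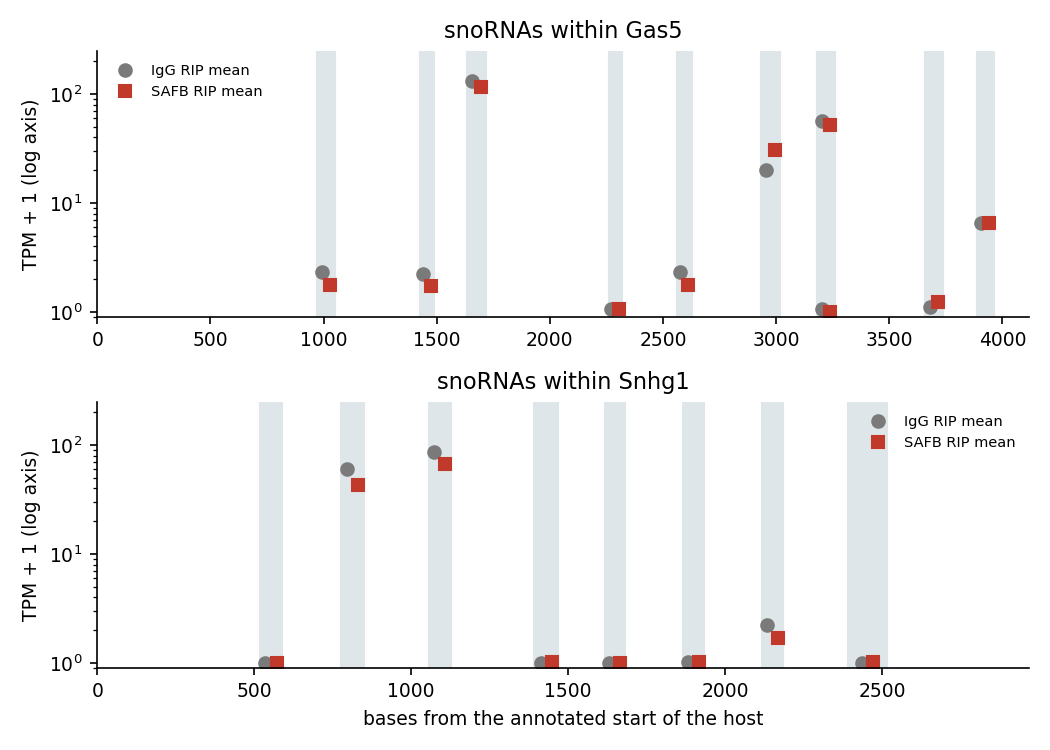
Mean TPM + 1 (y axis, log) of each annotated snoRNA within Gas5 (top) and Snhg1 (bottom) by its distance in bases from the host's annotated start (x axis), with circles for the IgG RIP and squares for the SAFB RIP; grey bands are the snoRNAs. In each host 2 entries stand above 30 TPM in both groups (Gm22357 and Snord80, and Gm24452 and Gm25894), while most others lie near 1 or below.

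The snoRNA's log2(TPM + 1) minus that of its host in the same library was compared between the groups. This difference was fitted over all 276 pairs of a snoRNA and a host on the same strand in which both were tested. None of the 18 pairs with a member as host passed (limma, adjusted p of 0.309 or more), and 0 reached an unadjusted p below 0.05. Over all 276 pairs, 0% were called higher and 1.81% lower in the SAFB RIP, and 68 had an unadjusted p below 0.05. The ratio was higher in the SAFB RIP in 8 of the 18 and lower in 10, with a median of -0.10 against -0.34 over all pairs. Standard errors ran from 0.43 to 2.60 on the log2 scale, so moderate differences were not detectable. Of the 18 snoRNAs, Snord87 and Snora73b alone lie outside annotated exons of their hosts. For the rest, reads of the host may count in both entries. The test therefore cannot tell whether snoRNA and host were recovered in different proportion. For Gm24452 over Snhg1 the difference was 0.46 with an interval of -0.82 to 1.74, and for Gm22357 over Gas5 it was -0.11 with an interval of -1.23 to 1.01.

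**Figure D5:**
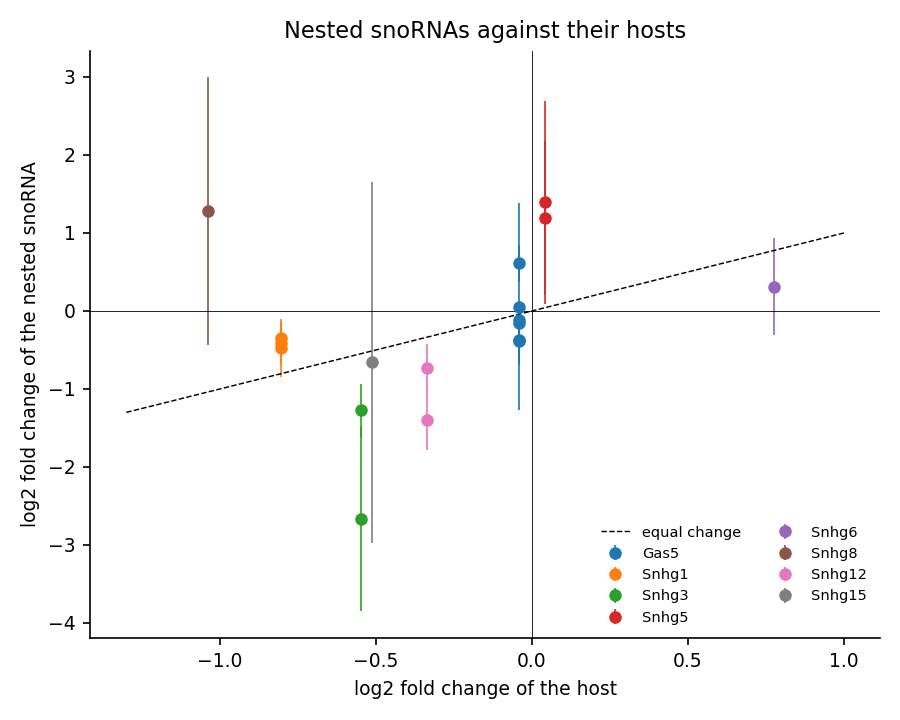
Log2 fold change of each of the 18 tested nested snoRNAs (y axis, bars are SE) against that of its host (x axis), coloured by host; the dashed line marks equal change. The 3 snoRNAs of Snhg1 lie above the line and the 4 of Snhg3 and Snhg12 below it, and 0 of the 18 differences passed the test.

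Among lncRNAs the tested hosts lay towards the lower fold changes. The median log2 fold change of the 1483 annotated lncRNAs tested was 1.16, with 40.7% called higher and 2.09% lower. Among the 187 lncRNAs with a mean of at least 20 TPM, which all 8 tested hosts also reached, the median was 1.13, with 103 called higher and 11 lower. Gas5 lay above 15.5% of the lncRNAs tested, Snhg1 above 4.65% and Snhg6 above 37.7%. These lists share their libraries, and the difference between them was not tested.

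Of all 31 lncRNAs tested that hold an annotated snoRNA, the 8 tested members included, 7 were lower and 6 higher, with a median log2 fold change of -0.04. Over all genes tested, 8.3% were lower and 29.8% higher. From a list of 15 other noncoding hosts, 9 identifiers were tested, of which 3 were lower and 1 higher, or 3 and 0 of 8 without Mir22hg, which hosts a microRNA and was left out after its values were seen. Zfas1, host of several C/D RNAs, fell from 101 and 125 TPM in the IgG RIP to 64.7 and 68.0 TPM in the SAFB RIP (-0.75 ± 0.14, limma adjusted p = 0.0210). Epb41l4aos fell from 32.0 and 28.3 TPM to 10.4 and 16.2 TPM (-1.15 ± 0.28), and 1 of the 2 identifiers of Dancr from 7.79 and 7.86 TPM to 2.94 and 1.19 TPM (-1.59 ± 0.42). The other Dancr identifier was listed at 0 in the IgG RIP and stood at 4.05 and 0.594 TPM in the SAFB RIP, and their sum was 7.79 and 7.86 TPM against 6.99 and 1.79 TPM. Mir22hg rose from 55.9 and 50.9 TPM to 99.7 and 115 TPM (0.99 ± 0.13), and stood at 0.14 with a GC trend removed, where it did not pass (limma, adjusted p = 0.538). Snhg17 at 0.06, Snhg4 at 0.37 and Snhg20 at -0.66 did not pass, and neither did Snhg7 at 1.11 and Snhg14 at 1.89, which stood at 5.71 TPM or less in every library.

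Of protein-coding genes that hold snoRNAs, 227 were tested. Their median log2 fold change was 0.47, with 90 higher and 19 lower, or 39.6% and 8.37%, against 28.3% and 10.1% of all protein-coding genes tested. After centring 42 were higher and 43 lower. The 4 most abundant were Tpt1 (1.05 ± 0.16), Rpl13a (0.13 ± 0.15), Eef2 (-0.92 ± 0.11), all known as TOP mRNAs, and Atp5b (-0.74 ± 0.10), a subunit of the mitochondrial ATP synthase. Of these Tpt1 passed as higher but not after centring, at 0.59, Eef2 and Atp5b passed as lower and Rpl13a did not pass.

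Lists of genes for proteins that bind, build or degrade these RNAs had median log2 fold changes of 0.19 (core), 0.88 (assembly), 0.87 (nonsense-mediated decay), 1.23 (exosome and intron turnover) and 0.66 (TOP RNA factors). Here and below, rose and fell mean higher and lower in the SAFB RIP than in the IgG RIP, and not a change in the cells. Of 8 snoRNP core protein genes tested, 2 rose and 0 fell, or 1 and 2 after centring, and the 25.0% that rose compares with 29.8% of all genes. Of all genes 8.3% fell, and after centring 16.4% rose and 17.6% fell. Nop56, of the C/D particle, rose by 0.67 ± 0.10 as deposited but stood at 0.21 after centring and at 0.14 with a GC trend removed, where it did not pass (limma, adjusted p = 0.196 and 0.318). Dkc1, the pseudouridine synthase of the H/ACA particle, rose by 1.66 ± 0.14, and by 0.79 with a GC trend removed, while Nop58 at 1.16 ± 0.66 and Nhp2 at 0.24 ± 0.12 did not pass. Of 14 assembly factor genes, 6 rose and 1 fell, or 5 and 2 after centring, among them Nolc1 (2.13 ± 0.11), Rpap3 (2.11 ± 0.14) and Ruvbl1 (1.43 ± 0.23), which rose. Aqr, an intron-binding helicase linked to snoRNP assembly, stood at 0.42 ± 0.14 and did not pass.

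Of 12 nonsense-mediated decay genes, 9 rose and 1 fell, or 4 and 3 after centring. Over all genes tested, 29.8% rose and 8.3% fell, or 16.4% and 17.6% after centring, which also applies to the lists below. Smg6, the endonuclease, rose from 35.3 and 49.0 TPM to 323 and 288 TPM (2.84 ± 0.19), while Upf1, the central helicase, fell from 108 and 104 TPM to 59.5 and 64.0 TPM (-0.77 ± 0.11). Smg1, a kinase of this pathway, rose as deposited (0.80 ± 0.18), did not pass after centring and stood at -0.040 with a GC trend removed. Of 6 exosome and intron turnover genes 3 rose and 0 fell, also after centring, with Xrn2 at 1.30 ± 0.25 and Skiv2l2 at 1.56 ± 0.14 among the 3. With a GC trend removed Xrn2 stood at 0.43 and did not pass, and Skiv2l2 rose by 0.70. Exosc10 at 0.07 ± 0.17 and the debranching enzyme gene Dbr1 at 1.16 ± 0.35 did not pass. Of 6 genes for factors that bind TOP RNAs or related tracts, 4 rose and 0 fell, or 1 and 1 after centring. Larp4b (0.91 ± 0.18) and Tial1 (0.52 ± 0.15) rose as deposited but did not pass after centring, and stood at 0.06 and -0.36 with a GC trend removed. Larp1, which binds the TOP start itself, stood at 0.29 ± 0.11 and did not pass, nor did Tia1 at 0.03 ± 0.09, which passed as lower after centring, at -0.43.

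SAFB proteins are known to bind purine-rich RNA, so the pentamer GAAGA was counted on the transcribed strand of the longest annotated transcript of each gene, with overlaps counted. Of the tested genes, 90.5% held at least 1 copy, and the median density was 2.15 per kb, against 2.76 per kb in genes called higher and 1.54 per kb in genes called lower. Snhg6 and Snhg15 held 0 copies, Snhg8 1.29 per kb, Snhg1 1.47, Snhg3 1.72, Gas5 2.35, Snhg12 2.60 and Snhg5 4.91. Of the 8 tested hosts, 5 lay below the median of tested genes. Of the 8, Snhg8 had the lowest log2 fold change (-1.04), and Snhg5, with the highest density, stood at 0.04. Snhg6, with 0 copies in 816 bases, had the highest fold change (0.78), and Snhg15, with 0 copies, stood at -0.51. The longest transcript took 2728 of the 2969 bases that Snhg1 spans, 2556 of 4118 in Gas5 and 776 of 853 in Snhg8. In Snhg3 it took 581 of 5673. For hosts such as Snhg1 and Snhg8 the density can thus include intron and snoRNA sequence. Whether density and fold change were linked was not tested. A match is a description of the letters and not a binding site.

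By their longest annotated transcript, which can include introns and snoRNAs, most hosts were low in GC. GC content also moved with the fold change over the table. The longest transcripts of 7 of the 8 were below the median of tested genes, 49.0%, with Snhg1 at 40.5%, Snhg6 at 41.5% and Gas5 at 42.3%, while Snhg15 was at 53.9%. Genes called higher had a median of 46.6% GC and genes called lower 55.6%. With a trend on GC content removed from each library, which also centres it, 5 of the 8 hosts were lower, with 14.1% of all genes lower. They were Snhg8 (-1.86), Snhg1 (-1.67), Snhg3 (-1.43), Snhg12 (-1.08) and Gas5 (-0.93). This alternative was chosen after seeing the data.

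By level in the 4 libraries, the genes nearest to each host were sought by Euclidean distance over log2(TPM + 1), predicted symbols left aside. Those given here were all protein coding, but so were 11961 of the 16647 genes tested, so nothing is read from this. For Gas5 they were Akr1c13 (0.16) and Drg1 (0.17), for Snhg1 Rnf187 (0.14) and Lmbr1l (0.18), and for Snhg8 Lrtm2 (0.15) and Hilpda (0.18). For Snhg6 they were Yars (0.19) and Eme2 (0.19), for Snhg5 Cnot3 (0.22), and for Snhg12 Zdhhc12 (0.10) and Pxmp2 (0.19). For Snhg3 they were Slc29a3 (0.16) and Pef1 (0.16), and for Snhg15 Sdf2 (0.31) and Mcoln1 (0.39).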

How the data were processed

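The authors deposited 1 table of TPM values for 52197 entries in 4 libraries, with 2 per group. Per the submitters' processing notes, HISAT2, HTSeq, DESeq2 and StringTie and the build mm10 were used, while the sources used here give no versions, roles or use of strand. Entries sharing an identifier (14 entries, 6 identifiers) were summed, which left 52189, of which 52042 matched GENCODE release M21 (mm10). TPM keeps no depth, so a host's value is a share of its library and falls when other RNAs take more.

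Genes that reached 1 TPM in 2 or more libraries (16647) were fitted as log2(TPM + 1) with limma 3.58.1 in R 4.3.3, with a variance trend, 2 residual and 2.5 prior degrees of freedom, and Benjamini-Hochberg adjustment over all of them at 0.05. No exact permutation test was run, since with 2 against 2 libraries its smallest two-sided p is 0.333. A snoRNA was paired with each protein-coding or lncRNA gene that holds it whole on the same strand. Both fits were also run on simulated data, drawn with the spread of the gene fit. For the pairs of snoRNA and host this spread is not their own, so nothing is read from that run. Members, gene lists and the rule for named genes (the members, their nested snoRNAs, and up to 4 of highest mean TPM per list) were chosen with earlier results of these data known. Errors are SD for TPM means and SE for fold changes. Values of 2 single genes that this rule or the search for nearest genes would name are not reported here, and counts over lists include every tested gene.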

Additional observations from a re-analysis of the deposited data

How the results depend on the processing

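Depth is unknown, so nothing can be said on how it limits single values, and 2 libraries per group leave few degrees of freedom. Over all genes, 4964 were higher and 1382 lower. The counts were 2736 and 2935 after median centring, 2758 and 2986 after quantile normalization, and 2234 and 2346 with the GC trend removed. Rescaling on protein-coding genes alone left 2243 lower, and leaving out mitochondrial, ribosomal DNA and short RNAs 2195 lower. With 1 library left out, so that the lone library of its group is assumed to vary like the other pair, 767 to 7627 genes were higher and 7 to 2566 lower. Snhg1 and Snhg8 stayed negative in all 15 alternatives, from -1.67 to -0.61 and from -1.86 to -0.82.

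Among the hosts, 2 were lower and 0 higher. With no filter or with no variance trend 1 was lower, and with the GC trend removed 5 were. Snhg6 made 1 host higher with a pseudocount of 5, with a mean of at least 5 TPM, and with a replicate block. With 1 library left out, 0 to 5 hosts were lower and 0 to 2 higher, and Snhg5 ranged from -0.36 without IgG RIP replicate 2 to 0.45 without IgG RIP replicate 1. Of 29 genes of the host and pathway lists that passed and are reported here, 20 still passed in the same direction after median centring, 16 with the GC trend removed, and 0 and 1 without SAFB RIP replicate 1 or 2. Among pathway genes that passed, the sign changed with the GC trend removed in Smg1 (-0.040), Xrn1 (-0.015), Dcp2 (-0.0070), Larp4 (-0.0068) and Tial1 (-0.36). Tia1 turned to -0.43 after centring and to -0.85 with the GC trend removed. The causes were not tested.

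Over all pairs of snoRNA and host, 0 ratios were higher and 5 lower. With a pseudocount of 0.1, 1 was higher, and with a pseudocount of 5, 6 were higher and 25 lower. With snoRNAs outside host exons alone 1 was lower, and with 1 library left out 0 to 25 were higher and 3 to 34 lower. Among pairs with a member as host 0 to 1 were higher and 0 lower in those fits.

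The labels give both groups the numbers 1 and 2 without saying that a number marks a shared lysate, and deviations of same-numbered libraries correlated at -0.02 across genes. The replicate block left 4797 genes higher and 1264 lower and 0 pairs of snoRNA and host lower, and Nop58 passed with it (limma, adjusted p = 0.00661). With 2 pairs the numbers are not taken as pairing.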
